A study of Rattus norvegicus with 12 samples.

Results

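The sciatic nerve of athymic nude rats was compared between the side that received the peptide MBP84-104 and the opposite side, with 1 array for each nerve out of 12 arrays in the series. Myelin basic protein (MBP) is a major protein of the myelin sheath, the stack of membrane that Schwann cells wrap around axons in peripheral nerves, and MBP84-104 is a stretch of it. Foxn1, a transcription factor that the thymus needs to form, is mutated in nude rats. They are depleted of T cells that mature in the thymus but keep macrophages, granulocytes, natural killer (NK) cells and B cells. The comparison asks which transcripts differ between the injected and the contralateral nerve in a host without a thymus.

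Both arrays held total RNA of a pool of 3 female athymic nude rats (rnu-/-, Hsd:RH-Foxn1rnu), adults of 8 weeks, taken 7 days after the injection. The left nerve was the site of the peptide injection (50 µg in 5 µL PBS), and the right nerve is labelled as a PBS injection site, so the contralateral tissue was not untouched. The most similar pair of arrays, given beside it, is the same comparison in female Sprague-Dawley rats of 8 weeks, again in pools of 3, on day 12. These are called wild-type here. Day and strain thus both differ between the pairs of arrays and cannot be told apart from the Foxn1 mutation. The paper describes another group size and the same time for both rat types. It calls heterozygous rats wild-type in its behavioural work and takes array tissue from wild-type and nude rats after that work. The labels, which give Sprague-Dawley rats, were followed here. All 4 nerve arrays lay on the same slide. With 1 array a side there is no replicate, and no test was possible. Every ratio describes these pools of RNA.

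Background on the injured nerve helps in reading the gene groups. Schwann cells that lose contact with an intact axon shut down myelin and lipid synthesis, divide and take up a repair programme. Macrophages enter from the blood, clear myelin debris and export its cholesterol. T cells that recognise myelin peptides can add to this, but nude rats have no thymus in which to make them.

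The values rest on arrays of unequal brightness. The injected nude array had a median spot signal of 23.5, the lowest of the series, and its contralateral partner 83.9, against 57.7 and 53.8 in the wild-type pair. Of the spots, 59.5% and 70.8% were well above background by the flag of the extraction software, and none was saturated. The 2 nude arrays were therefore compared on 2 scales. The first is the log2 spot signal minus the median of its array, called median-centred, and the second is the normalized log2 value that the authors deposited. Each gene is given with its median-centred log2 ratio, injected minus contralateral, followed by the deposited one. A gene counts as higher or lower where it was at least 2-fold so on both scales. For a gene well above background on 1 array alone, the other signal was raised to a floor. This floor is the lowest signal well above background on that array, and the ratio is then a bound, written "at least". Where the other signal already exceeded the floor, it was kept, and the ratio is a plain difference. Such genes are listed among the bounds below.

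Neither scale fixes the absolute amount of RNA. The array design holds probes for control transcripts that are added in set amounts during labelling, and 8 of these probes were well above background on both nude nerve arrays. Before centring, their log2 signals differed by −0.67 to −0.24 between the arrays (median −0.41), while the array medians differed by −1.67. Control probes of the wild-type pair differed by a median of −0.31 and the array medians by 0.13. On the median-centred scale the control probes therefore stood at 1.00 to 1.43 (median 1.26), and on the deposited scale at 0.47 to 1.69 (median 1.17). A ratio here is relative to the middle of each array, and it is said below which genes also lay above every control probe. Repeat spots of a probe give the technical error. Over 1044 probes with 10 spots each, the SD of a log2 ratio from 1 spot was 0.115 at the median, 0.196 in the dimmest 261 probes and 0.0765 in the brightest 261. The spread between animals is not in these values. Of 30360 probes used, 13137 had 1 spot and so no error of their own.

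Of 9453 genes measured, 677 were at least 2-fold higher in the injected nerve (7.16%) and 643 at least 2-fold lower (6.80%). The median ratio of all genes was −0.38 on the median-centred and −0.18 on the deposited scale, so list medians below are to be read against these values. List counts are to be read against the shares of all genes, which in the wild-type pair were 4.55% higher and 3.38% lower. Of the higher genes 38, and of the lower genes 164, were well above background on 1 array alone. The split moved with the scale: 710 higher and 1279 lower genes on the median-centred values alone, and 819 and 645 on the deposited values alone. With arrays scaled to the 75th percentile in place of the median, it was 1132 and 530 on that scale alone, and 819 and 492 where the deposited scale was also required. Centred on probes seen on both arrays, it was 1019 and 665 alone, and 804 and 553 with both. Scaled to the control probes, 57 genes were higher and 7626 lower on that scale alone, with a median of all genes of −1.64, and 57 and 645 with both. Of the 677 higher genes, 154 lay above every control probe on both scales. Genes seen on both arrays were divided into 10 bins by signal. The dimmest bin had a median ratio of 0.50 and 0.47, while the other bins lay between −0.50 and −0.20 on the median-centred and between −0.21 and −0.11 on the deposited scale. Dim genes thus ran above the median of all genes, and lists with dim members are to be read against the dimmest bin too.

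**Figure D1:**
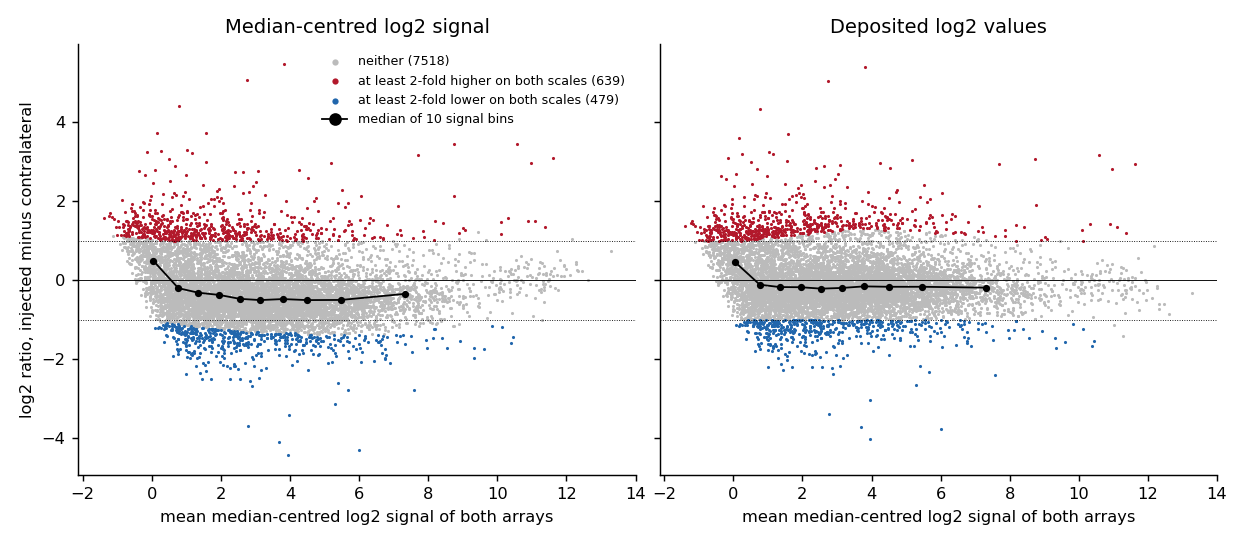
Log2 ratio, injected minus contralateral nude nerve, against the mean median-centred log2 signal of 8636 genes well above background on both arrays, with the median-centred ratio in one panel and the deposited ratio in the other. Points are genes, coloured for the 639 higher, the 479 lower and the other genes, and the line joins medians of 10 signal bins. The line is above 0 in the dimmest bin and below 0 in the other 9.

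The highest ratios were those of Gpr15lg and Il1rl1. Gpr15lg, the ligand of the chemoattractant receptor GPR15, had a spot signal of 1459 on the injected and 103 on the contralateral array, and was 45.0-fold higher on the median-centred and 42.2-fold on the deposited scale. Its probe had 1 spot. Il1rl1, the receptor of the alarm cytokine interleukin-33, had signals of 599 and 57.0 and was 33.5-fold and 33.1-fold higher. For both genes the injected signal exceeded the contralateral one before any scaling, on the dimmer array. Cdhr1, a photoreceptor cadherin, followed with log2 ratios of 4.42 and 4.34, and Lbp, which binds bacterial lipopolysaccharide, with 3.73 and 3.61.

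Also among the 10 highest genes were the globin genes Hbb-b1 (3.46 and 3.16) and Hbe2 (3.46 and 3.08), C1qtnf3 (3.31 and 3.26), the cadherin gene Cdhr5 (3.29 and 3.19) and Gpihbp1 (3.23 and 3.19), which carries lipoprotein lipase into capillaries. Among wild-type ratios, 9 of these 10 genes were also at least 2-fold higher. Cdhr5 was the exception, with wild-type ratios of 0.22 and 0.17. Of genes seen on the injected array alone, the largest bounds were those of Tnn, a tenascin (at least 14.5-fold and 12.7-fold higher), the trypsin-like gene Prss3bl1 (at least 14.0-fold and 12.3-fold), Lrrc15, a membrane protein of activated fibroblasts (3.73 and 3.54), the pigment gene Tyrp1 (3.33 and 3.17) and the chemokine gene Ccl1 (3.18 and 3.00). The probe of Prss3bl1 had 1 spot.

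The lowest ratios were those of Rnase1 and Scd. Rnase1, a secreted ribonuclease, had signals of 51.1 and 3523 and was 21.6-fold and 16.3-fold lower in the injected nerve. Scd, which makes monounsaturated fatty acids, had signals of 222 and 13934 and was 19.7-fold and 13.8-fold lower. Ces1d, a lipid esterase (−4.09 and −3.72), Car3, the carbonic anhydrase of fat and muscle (−3.68 and −3.39), and PCOLCE2, a procollagen processing enhancer (−3.40 and −3.02), came next.

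The rest of the 10 lowest were the fat hormone genes Adipoq (−3.13 and −2.66) and Retn (−2.79 and −2.32), the phospholipase gene Pla2g2a (−2.79 and −2.39), Thrsp (−2.69 and −2.38) and Mmp27 (−2.51 and −2.28). Of genes seen on the contralateral array alone, Cpa1 was 15.2-fold and 12.4-fold lower and Rnase1l2 14.7-fold and 12.2-fold. Their injected signals, not well above background, exceeded the floor, so these are plain differences. The glycerol channel gene Aqp7 had bounds of −3.40 and −3.17. Acvr1c, with bounds of −3.16 and −2.96, and the amino acid transporter gene Slc7a10, with plain differences of −2.57 and −2.39, completed the 5 largest. All 10 lowest genes and these 5 were also at least 2-fold lower in the wild-type pair.

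**Figure D2:**
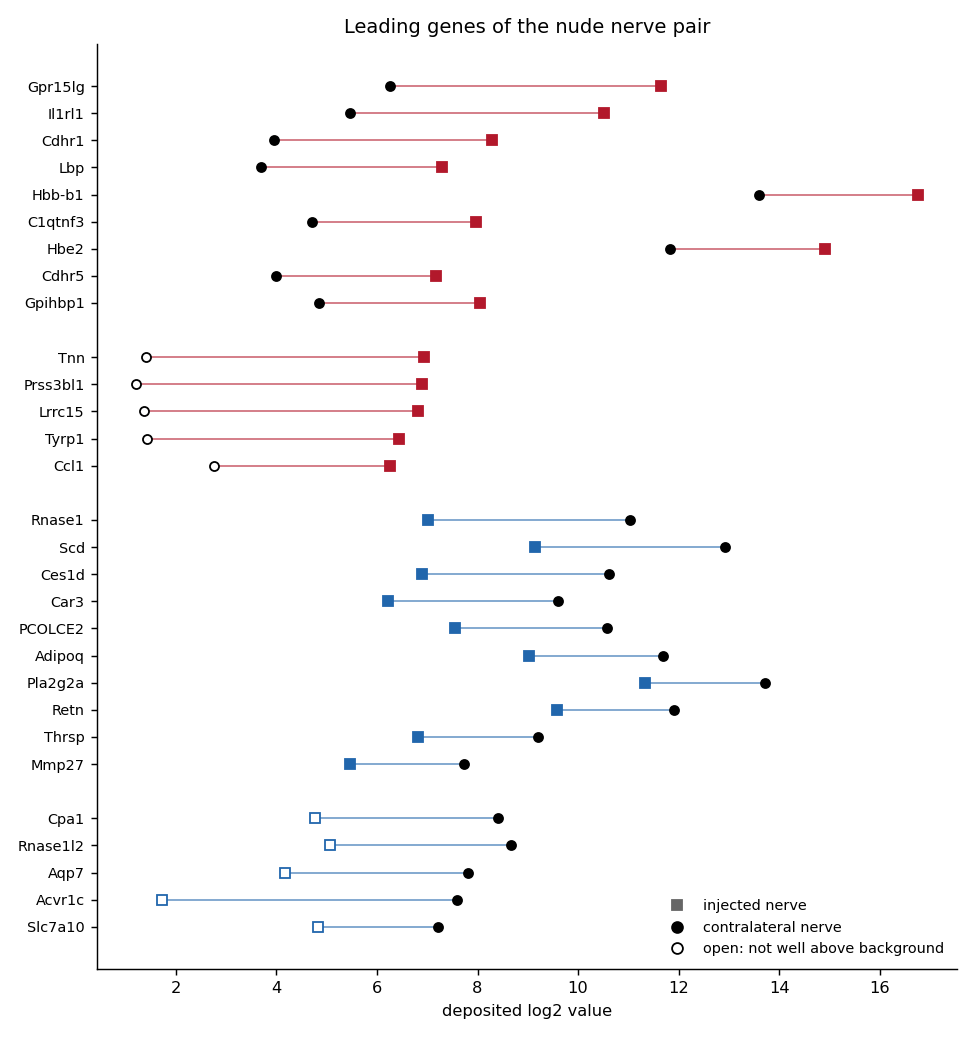
Deposited log2 level of leading genes on the injected and the contralateral nude nerve array, 1 array each: 9 of the 10 highest, the 10 lowest and the 5 largest bounds in each direction. An open symbol is a level not well above background. Gpr15lg stood at 11.65 and 6.25, and Scd at 9.15 and 12.93.

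Red blood cell genes had the highest median of the 37 gene lists that were examined. Of 12 on the array 7 were measured, 6 were higher and none was lower, with list medians of 2.77 and 2.83. All 6 lay above every control probe. Hba-a1, which encodes alpha globin, had deposited levels of 17.61 and 14.66 and was 8.57-fold and 7.75-fold higher. The globin partner Hbb (2.98 and 2.81), Alas2, the first enzyme of heme synthesis in red cell precursors (2.77 and 2.92), Hba-a3 (2.60 and 2.83) and the globin chaperone gene Ahsp (2.32 and 2.42) showed the same direction. The 10 probes of globin genes took 1.65% of the summed signal of the injected array and 0.194% of the contralateral one, against 1.17% and 0.280% in the wild-type pair. Globin probes can bind near-identical family members, so single globin values are uncertain. Red cell RNA thus differed between the compared samples, and its part in the other results was not tested.

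Of 21 measured genes of heme breakdown and iron handling, 3 were higher and none was lower, and the medians were near those of all genes (−0.43 and −0.24). Hmox1, which opens the heme ring, had deposited levels of 9.40 and 7.44, with ratios of 1.73 and 1.96. The zinc and iron transporter gene Slc39a14 (2.12 and 2.07) and Hp, whose product binds free hemoglobin (1.12 and 1.16), were the other 2. The transferrin receptor gene Tfrc, with ratios of −1.23 and −0.91, and the ferroxidase gene Heph, with −0.78 and −0.51, did not reach 2-fold on both scales.

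Genes of secreted alarm proteins were called in 1 direction alone. Of 17 measured 7 were higher, 6 of them above every control probe, and none was lower, with medians of 0.41 and 0.69. The lowest member of the list had a median-centred ratio of −1.02. Beside Gpr15lg and Lbp these were S100a8, S100a9, Reg3g, Ptx3 and Hp. S100a8 and S100a9, which neutrophils and monocytes store and release as a pair, had signals of 33.5 and 64.4 in the injected nerve against 16.8 and 43.8. S100a8 had ratios of 2.67 and 2.57, and S100a9 of 2.23 and 2.22. Reg3g, an antibacterial lectin, was measured on the injected array alone, at least 2.29 and 2.10. Its 2 spots disagreed, with a standard error of 0.957 for the log2 ratio, so its size is uncertain. Of the neutrophil list these S100 genes and the receptor gene Trem1 (1.03 and 1.01) were higher among 7 measured, with medians of 0.38 and 0.70, whereas Padi4, with ratios of −1.15 and −0.995, was just outside the call and Trem3 had −0.75 and −0.68.

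Macrophage genes were nearly all detected, on both arrays in 25 of 28, but few were far apart. The summed deposited level of the list was 16.56 on the injected array and 16.37 on the other on the log2 scale. Of 25 measured genes 3 were higher, all above every control probe, and none was lower, and 22 lay above the median of all genes on both scales. The 3 were the inhibitory receptor gene Lilrb4 (deposited levels 7.40 and 4.58, ratios 2.89 and 2.82), the pore-forming protein gene Mpeg1 (1.93 and 1.87) and Clec7a, the receptor for fungal glucan (1.72 and 1.72). The adaptor gene Tyrobp, with 0.75 and 0.81, and the scavenger receptor gene Msr1, with 0.64 and 0.76, did not reach 2-fold. In bulk tissue, more cells of a type and more RNA per cell cannot be told apart.

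The genes by which macrophages take up lipid and export cholesterol were further apart. Of 28 measured 7 were higher, 4 of them above every control probe, and 1 was lower, with medians of 0.33 and 0.42. Apoc1, a lipoprotein component, had signals of 182 and 111 and ratios of 2.39 and 2.52, and Abca1, the pump that loads cholesterol onto lipoproteins, had ratios of 1.97 and 2.09. Mmp12, the macrophage elastase, and the scavenger receptor gene Olr1 were seen on the injected array alone, with log2 ratios of at least 2.498 and 2.31 and of at least 2.39 and 2.20. Apoe, Trem2 and Gpnmb were the other higher members. Lpl, the lipase that releases fatty acids from lipoproteins, was lower (−1.92 and −1.59).

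Chemokine genes diverged in both directions. Of 25 measured 9 were higher and 3 lower, with medians of 0.62 and 0.79. The 3 above every control probe were Ccl20, which was seen on the injected array alone and attracts CCR6 cells (at least 8.35-fold and 7.36-fold higher), Ccl2, the main monocyte attractant (signals 2140 and 1543, ratios 2.14 and 2.22), and Ccl5 (1.79 and 1.996). The other higher chemokine genes were Cxcl9, Ccl9, Xcl1, Ccl17, Ccl12 and Cxcl13. The lower ones were Cxcl1, a neutrophil attractant seen on the contralateral array alone (at least 5.90-fold and 5.27-fold lower), Ccl11, the eosinophil attractant (−1.97 and −1.54), and Ccl21, which guides cells into lymph vessels (−1.86 and −1.497). Ccl22 had ratios of 0.84 and 0.81. The wild-type pair had 13 of 26 chemokine genes higher and none was lower.

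Of 7 measured chemokine receptor genes, 3 were higher and 1 lower, with medians of 0.27 and 0.59, which turned to −0.18 relative to all genes when a gene's probes were averaged. Ccr6, the receptor of Ccl20, had ratios of 1.73 and 1.60, Cxcr4 of 1.67 and 1.73, and Cx3cr1 of 1.53 and 1.64. The spot signals of Cx3cr1 were nearly equal before centring, at 1717 on the injected and 1895 on the contralateral array. Ccr2, the receptor of Ccl2, was lower (−1.10 and −1.01) but lay at 0.16 relative to all genes after normexp, a model-based background correction run with an offset of 50, and Ccr1 had ratios of −1.07 and −0.99.

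Of 29 measured genes of the interleukin-1, TNF and interleukin-6 families, 2 were higher and 1 lower, with medians of −0.04 and 0.28. Among all genes 7.16% were higher and 6.80% lower. Il1rl1, described above, and Il11, a cytokine of the gp130 family (1.25 and 1.43), were higher. Il33, which encodes the ligand of Il1rl1, had signals of 1008 and 8216 and ratios of −1.35 and −0.98, just short of 2-fold on the deposited scale. Lifr, the receptor for leukemia inhibitory factor, was measured on the contralateral array alone and was lower (−1.30 and −1.25), with 0.39 relative to all genes after normexp correction. Tnfrsf1a, the main TNF receptor gene, had 0.81 and 1.06.

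Complement genes gave 3 higher and 1 lower of 26 measured, where 7.16% of all genes were higher and 6.80% lower. The medians were 0.01 and 0.19, and after normexp correction the list lay at −0.053 relative to all genes. Cd55, which protects cells from complement, had signals of 247 and 117 from a probe with 1 spot, and ratios of 2.75 and 2.89, above every control probe. Its wild-type ratios were −0.63 and −0.60. The protease gene Cfi (1.19 and 1.30) and the central component C3 (1.11 and 1.29) were also higher, and Vtn, which encodes vitronectin, was lower (−1.39 and −1.02). C2 had ratios of 0.81 and 1.09.

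T cell genes were detected in part on these arrays. Of 25 on the array, 8 were well above background in the injected nude nerve and 14 in the other nerve, against 16 and 13 in the wild-type pair. Of all probes, 15966 and 19678 were well above background on the nude arrays, and 18623 and 18048 on the wild-type arrays. The detection counts thus also follow the brightness of the arrays. Cd3e, a chain of the T cell receptor complex, and Lck, its kinase, were not well above background on any nerve array, wild-type included, and Cd8a was so on the injected wild-type array alone. Of 11 measured 3 were higher and none lower, with medians of 0.24 and 0.33: Thy1 (1.75 and 1.88), which fibroblasts and neurons also make, Cd3d (1.27 and 1.44) and Cd6 (1.13 and 1.40). The deposited levels of Cd3d were 8.14 and 6.71, against 8.18 and 7.78 in the wild-type pair. Those of Cd6 were 9.11 and 7.71, against 8.49 and 8.18. The source of these signals in nude nerve was not tested. Only Thy1 lay above every control probe. Cd8b, with ratios of 0.87 and 0.82, and Cd7, with 0.69 and 0.77, did not reach 2-fold.

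Genes of NK and other cytotoxic lymphocytes gave 4 higher and none lower of 7 measured, with medians of 1.29 and 1.27. They were Tbx21 (1.49 and 1.34), a transcription factor of type 1 lymphocytes, the interleukin-2 receptor gene Il2rb (1.37 and 1.27), Xcl1 (1.36 and 1.38) and the granule gene Nkg7 (1.29 and 1.37), and none lay above every control probe. Il2rb, with signals of 18.6 and 22.9, and Xcl1, with 44.0 and 54.7, were dim, and dim genes ran above the median of all genes. Before centring, Tbx21 had a spot signal of 56426 on the injected array and of 63868 on the other, from a probe with 1 spot. Its deposited levels were 16.30 and 14.95, and 15.90 and 15.98 in the wild-type pair. Those of Col3a1, a collagen gene, were 16.55 and 15.98 in nude nerve. Such a level is high for a lymphocyte factor, and whether the probe reports Tbx21 was not tested. The killer cell receptor gene Klrk1 had ratios of 0.78 and 1.05. Ncr1, Gzmb and Ifng, which define active NK cells, were not well above background on any nerve array. Wild-type nerve gave 1 higher of 9 measured genes, and the medians were 0.16 and 0.23.

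Of 3 measured B cell genes, Pax5, the factor that fixes B cell identity, was higher (1.75 and 1.99), from spot signals of 786 and 743. Its probe had 1 spot, and whether that probe reports Pax5 was not tested. Pou2af1 had ratios of 1.02 and 0.98 and Fcrla of −0.54 and −0.26. Cd79b, a chain of the B cell receptor, was not well above background on any nerve array. Dendritic cell genes gave 2 higher, Ccl17 (1.33 and 1.36) and the factor gene Irf8 (1.29 and 1.19), and 1 lower, Batf3 (a bound of −1.59 and −1.53), of 9 measured. Mast cell genes gave none higher and 2 lower of 12: Ms4a2, a chain of the IgE receptor (−1.75 and −1.61), and Kit, the stem cell factor receptor gene, measured on the contralateral array alone (−1.17 and −1.13). After normexp correction Batf3 lay at 0.15 and Kit at 0.44 relative to all genes. The list medians were −0.29 and −0.19 for dendritic cells and −0.54 and −0.34 for mast cells.

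Antigen presentation differed little between the nerves. None of 13 measured genes of MHC class II and none of 22 of MHC class I was at least 2-fold higher or lower on both scales. The medians were −0.13 and 0.07 for class II and −0.23 and 0.00 for class I, on both scales above the medians of all genes. Relative to all genes, class II lay at −0.055 and class I at −0.20 with no filter on dim probes, and class I at −0.29 after normexp background correction. Lgmn, a lysosomal protease of peptide processing, had ratios of 0.57 and 0.85. RT1-CE10, a class I gene, passed 2-fold on the deposited scale alone, at 0.83 and 1.13, and Rfxap, a regulator of class II genes, −0.93 and −0.85. RT1 probes can bind related members of the family.

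Of 36 measured interferon-induced genes 1 was higher and none lower, with medians of −0.28 and −0.10. That gene was the antiviral enzyme gene Rsad2 (deposited levels 6.97 and 5.52, ratios 1.43 and 1.45). Mx2 had ratios of −1.04 and −0.67 and Cmpk2 of −0.98 and −0.84. In the wild-type pair 16 of 39 measured genes of this list were higher and none was lower, with medians of 0.82 and 0.82. Cmpk2 was among them, at 1.08 and 1.10. Over the alternative settings its nude ratio relative to all genes ran from −0.95 to 0.18.

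**Figure D3:**
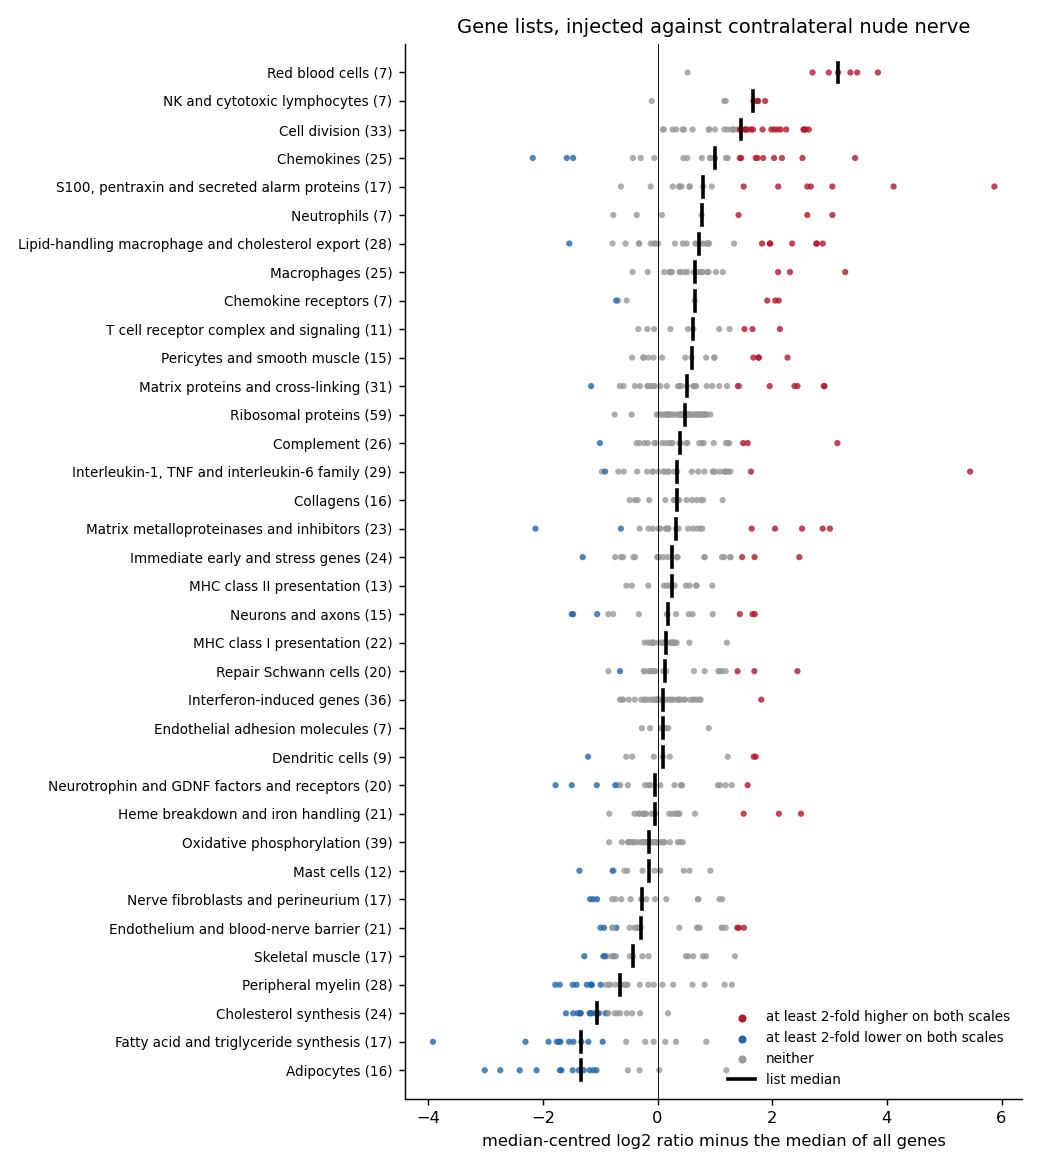
Median-centred log2 ratio minus the median of all genes, for every measured member of 36 lists with at least 5 measured genes, injected against contralateral nude nerve. Points are genes, coloured where at least 2-fold on both scales, and the bar is the list median. Red blood cell, NK and cell division genes sit to the right, and cholesterol, fatty acid and adipocyte genes to the left.

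Peripheral myelin genes, which mark the labelled tissue, were well above background for 26 of 30 genes on the injected and 30 on the contralateral array, and none was higher. On the same arrays 15966 and 19678 of all probes were well above background. Of 28 measured 9 were lower, with medians of −1.03 and −0.89, and 21 lay below the median of all genes on both scales. Drp2, with deposited levels of 6.60 and 8.46 (ratios −2.17 and −1.85), and Prx (−1.79 and −1.40), which link the sheath to the basal lamina, Fa2h (−1.86 and −1.48), which hydroxylates myelin lipids, and Cldn19 (−1.62 and −1.31), a tight junction protein of the sheath, were among them. Dhh, Pllp, Pmp2 and Mal were also lower. Wild-type nerve gave 6 of 28 lower and none higher, with medians of −0.58 and −0.50.

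Mbp itself, the source of the peptide, did not differ by 2-fold. Its signals were 93948 on the injected and 255918 on the contralateral array. The ratio was 0.23 on the median-centred and −0.61 on the deposited scale, so the scales disagree on its direction. The wild-type ratios were −0.37 and −0.32. Foxn1 was near background, with signals of 12.4 and 24.6 and well above background on the contralateral array alone, and does not check the genotype.

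Repair Schwann cell genes gave 3 higher and 1 lower of 20 measured, with medians of −0.26 and −0.05. Tnc, a matrix protein of injured nerve, had deposited levels of 8.12 and 5.97 and ratios of 2.06 and 2.15. The adhesion genes Ncam1 (1.31 and 1.36) and L1cam (1.01 and 1.14) were higher, and Cdh2 was lower, measured on the contralateral array alone (−1.04 and −1.02), with 0.54 relative to all genes after normexp correction. Uchl1 had ratios of −1.24 and −0.84.

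Growth factor and receptor genes, of the neurotrophin and GDNF families and of the EGF and FGF families among others, gave 1 higher and 4 lower of 20 measured, with medians of −0.42 and −0.18. The shares over all genes were 7.16% higher and 6.80% lower. Tgfa, a ligand of the EGF receptor, was higher (1.19 and 1.499). The neurotrophin receptor gene Ntrk2 (−2.16 and −2.05) and the sorting receptor gene Sort1 (−1.12 and −1.05) were lower. Neither was well above background on the injected array, and the values of Ntrk2 are bounds. Sort1 lay at 0.41 relative to all genes after normexp correction. Fgf2 was measured on both arrays and was lower (−1.44 and −1.28).

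Cholesterol synthesis genes were lower together in the injected nerve. Myelin is rich in cholesterol, most of which Schwann cells make themselves, and the genes of this pathway share regulation by SREBP factors. Of 24 measured genes 15 were lower and none higher, 23 lay below the median of all genes on both scales, and the medians were −1.43 and −1.11. Hmgcs1, an early enzyme of the pathway, had signals of 4979 and 62631 and was 3.95-fold and 3.31-fold lower. Insig1, a sterol sensor (−1.78 and −1.47), and the later enzymes Sc5d (−1.74 and −1.42) and Msmo1 (−1.73 and −1.46) followed.

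Sqle, Fdps, Idi1, Cyp51, Acat2, Lss, Stard4, Hsd17b7 and Tm7sf2 were also lower. In the wild-type pair 13 of 24 were lower and none higher, with medians of −1.17 and −1.04. Hmgcs1 stood there at −1.80 and −1.65.

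The promoters of 3 of the lowest of these genes are shown because the pathway's members were low together. They are RefSeq sequences of the GRCr8 assembly, 5′ to 3′ on the gene's strand, from 250 bases before to 50 after the start of the gene. Capitals mark CCAAT or its reverse complement ATTGG. They lie at chr2:53382054-53382353 (Hmgcs1, plus strand), chr4:8057720-8058019 (Insig1, minus strand) and chr16:29746863-29747162 (Msmo1, plus strand).
Hmgcs1: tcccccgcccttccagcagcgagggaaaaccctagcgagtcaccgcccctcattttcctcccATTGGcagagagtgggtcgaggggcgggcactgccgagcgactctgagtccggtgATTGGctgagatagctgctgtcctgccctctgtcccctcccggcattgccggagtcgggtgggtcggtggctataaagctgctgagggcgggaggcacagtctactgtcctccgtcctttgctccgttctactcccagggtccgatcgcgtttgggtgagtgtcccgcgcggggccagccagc
Insig1: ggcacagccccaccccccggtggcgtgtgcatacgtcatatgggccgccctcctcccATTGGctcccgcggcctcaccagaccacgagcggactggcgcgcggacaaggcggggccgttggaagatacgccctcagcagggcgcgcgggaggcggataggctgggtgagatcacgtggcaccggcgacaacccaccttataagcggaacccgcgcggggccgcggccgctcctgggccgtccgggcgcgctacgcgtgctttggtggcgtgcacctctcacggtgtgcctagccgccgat
Msmo1: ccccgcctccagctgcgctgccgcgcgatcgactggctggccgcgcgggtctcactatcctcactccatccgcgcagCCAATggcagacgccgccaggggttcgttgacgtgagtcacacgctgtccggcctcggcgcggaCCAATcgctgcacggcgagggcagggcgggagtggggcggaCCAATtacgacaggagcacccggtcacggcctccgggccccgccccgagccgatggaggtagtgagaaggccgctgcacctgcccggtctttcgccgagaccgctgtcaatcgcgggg

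Of 26 cholesterol synthesis genes on the array, 19 had a promoter in the table. CCAAT, searched on both strands, was present in 15 of these 19 (78.9%), in 37.9% of 8128 measured genes with a promoter and in 37.5% of all 33469 promoters. The GC box GGGCGG was present in 17 of 19 (89.5%), in 59.99% of measured genes and in 33.1% of all. The core of a sterol regulatory element, TCACNCCAC, was found in none of the 19, in 1.09% of measured genes and in 1.12% of all. These are matches of letters in a window of 300 bases and no measure of binding.

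Genes of fatty acid and triglyceride synthesis gave 11 lower and none higher of 17 measured, with medians of −1.71 and −1.51. Scd and Thrsp are described above. Dgat2, which completes triglycerides, had deposited levels of 7.30 and 9.28 and ratios of −2.28 and −1.98. Aacs (−2.14 and −1.85) and the chain-lengthening enzyme gene Elovl6 (−2.10 and −1.67) were next, and Me1, Fasn, Fads1, Scd2, Agpat2 and Acss2 were also lower. The wild-type counts were 8 of 17 lower and none higher, with medians of −0.99 and −0.84. Fat cells and Schwann cells both use these enzymes.

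Adipocyte genes gave 12 lower and none higher of 16 measured, with medians of −1.71 and −1.40. The summed deposited level of the list was 14.10 on the injected array and 15.24 on the other on the log2 scale. On these arrays 13 and 19 of 23 genes were well above background, beside 15966 and 19678 of all probes. Adipoq, the hormone adiponectin, had signals of 205 and 5689 and was 8.73-fold and 6.32-fold lower. Pnpla2, the lipase that opens fat stores (−2.49 and −2.21), and the fatty acid carrier gene Fabp4 (−2.08 and −1.68) went with Retn and Aqp7. The wild-type pair gave 10 lower and 1 higher of 17, with medians of −1.53 and −1.40. How much fat was taken with each nerve is not recorded in the labels, and its part in the lipid results was not tested.

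Skeletal muscle genes were dim on both arrays of nude nerve. Of 30 on the array, 13 were well above background on the injected and 22 on the contralateral array, beside 15966 and 19678 of all probes. The summed deposited levels were 10.95 and 11.16 on the log2 scale. Of 17 measured none was higher and 4 were lower, with medians of −0.81 and −0.66. The calcium pump gene Atp2a1 (−1.66 and −1.59), the myosin light chain gene Myl11 (−1.30 and −1.25) and the creatine kinase gene Ckm (−1.14 and −1.11) had only a bound. Actn3 was measured on both arrays (−1.33 and −1.15). In the wild-type pair 12 of 25 were higher and 1 lower, with summed levels of 13.16 and 11.64. There Myl11 stood at 4.15 and 4.08, Atp2a1 at 2.41 and 2.40 and Ckm at 1.33 and 1.36. Relative to all genes, the nude list median turned to 0.40 after normexp correction, the ratio of Atp2a1 to 0.058, that of Myl11 to 0.40 and that of Ckm to 0.46. The part of muscle in either pair of arrays was not tested.

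**Figure D4:**
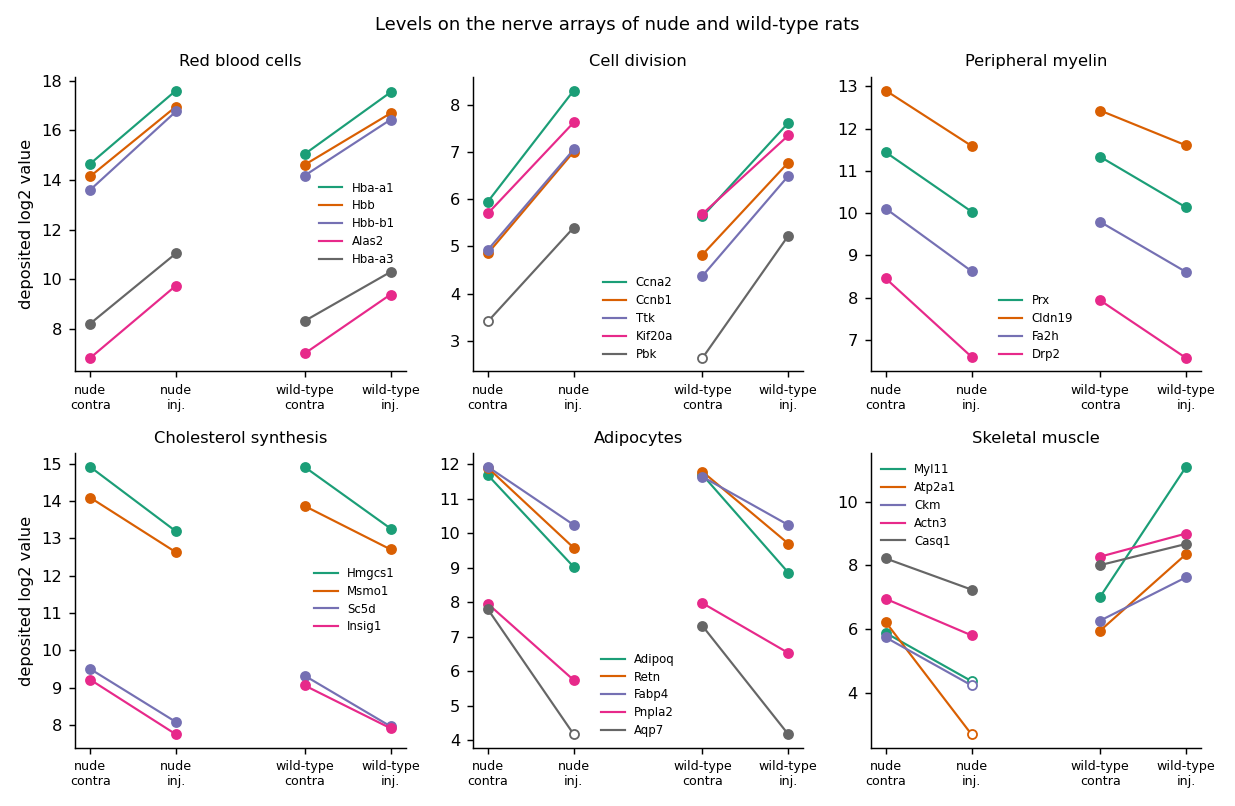
Deposited log2 level of up to 5 named genes of each of 6 lists (red blood cells, cell division, myelin, cholesterol synthesis, adipocytes and skeletal muscle) on the 4 nerve arrays, injected and contralateral, nude and wild-type, 1 array each. Each line is a gene, and an open symbol is a level not well above background. Red cell and cell division genes are higher on both injected arrays, lipid genes lower on both, and the muscle genes shown are lower on the injected nude and higher on the injected wild-type array.

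Cell division genes were the largest set of higher members. Of 33 measured 18 were higher and none lower, 7 of them above every control probe, with medians of 1.07 and 1.15, and all 33 lay above the median of all genes on both scales. Ccna2, the S and G2 phase cyclin, had signals of 124 and 82.6 and was 4.77-fold and 5.10-fold higher. The mitotic cyclin gene Ccnb1 (2.20 and 2.15), the spindle checkpoint kinase gene Ttk (2.16 and 2.12) and the mitotic kinesin gene Kif20a (1.86 and 1.92) followed. Pbk was well above background on the injected array alone (plain differences of 2.18 and 1.99).

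Other higher members were Cdk1, the kinase that drives mitosis, Rrm2, which supplies DNA precursors, Cenpf, Ccnb2, Prc1, Nusap1, Tpx2, Ube2c, Ccne1, Ndc80, Nuf2, Plk1 and Cdc20. For wild-type rats 25 of 36 were higher and none lower, with medians of 1.35 and 1.33. The arrays do not tell which cells divided.

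Matrix genes outside the collagens gave 6 higher, 5 of them above every control probe, and 1 lower of 31 measured, with medians of 0.13 and 0.35. Thbs1, an adhesive glycoprotein of platelets and wounds (2.53 and 2.37), and P4ha3, a collagen hydroxylase (2.01 and 1.81), were well above background on the injected array alone. Tnc and Postn (deposited levels 11.22 and 9.43, ratios 1.57 and 1.80) and the crosslinking enzyme gene Loxl1 were also higher. Fmod, a small collagen-binding proteoglycan, was lower. None of 16 measured collagen chain genes reached 2-fold, and the medians were −0.05 and 0.10, which relative to all genes turned to −0.17 after normexp correction. Col3a1, a fibrillar collagen of scars, had ratios of 0.75 and 0.57 and Col18a1 of 0.41 and 0.72.

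Matrix metalloproteinases (MMPs) and the genes that control them gave 5 higher and 2 lower of 23 measured, with medians of −0.06 and 0.11. Timp1, an MMP inhibitor, had signals of 13873 and 10056 and ratios of 2.14 and 1.91. Mmp7 (at least 2.62 and 2.45) and Mmp12 were seen on the injected array alone, and Plaur, the urokinase receptor gene (1.67 and 1.58), and Mmp19 were also higher. Mmp27 and Mmp24 were lower. Mmp9 was not well above background on any nerve array.

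Vessel genes were called in both directions, where 7.16% of all genes were higher and 6.80% lower. Of 21 measured endothelial and barrier genes 3 were higher, the junction gene Cdh5 (1.12 and 1.31), Sox18 (1.04 and 1.24) and the fenestral diaphragm gene Plvap (1.01 and 1.32). The lymphatic marker Lyve1 (−1.38 and −1.06), the junction gene Jam2 (−1.32 and −1.04) and Mfsd2a were lower, and the medians were −0.68 and −0.35. Relative to all genes the list turned to 0.32 after normexp correction. It also turned, to 0.028, with no filter on dim probes, and to 0.029 with probes well above background on both arrays. No higher member lay above every control probe.

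Of 15 measured pericyte and smooth muscle genes 4 were higher and none lower, with medians of 0.21 and 0.52: Actg2, an actin of smooth muscle (1.88 and 1.97), Des (1.38 and 1.61), Notch3 (1.38 and 1.45) and Higd1b (1.29 and 1.58). None of 7 measured adhesion molecule genes reached 2-fold (medians −0.28 and −0.04), among them Icam1 with ratios of −0.51 and −0.28. Genes of nerve fibroblasts and the perineurium gave 3 lower and none higher of 17, with medians of −0.66 and −0.34. These were Dpep1 (−1.56 and −1.35), Pi16, which marks a fibroblast progenitor (−1.50 and −1.19), and Osr2 (−1.44 and −1.18). Pi16 lay at 0.0081 relative to all genes with the mean over all its probes.

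Transcripts of neurons and axons gave 3 higher and 3 lower of 15 measured, with medians of −0.21 and −0.12. The neuropeptide genes Npy (1.31 and 1.52) and Calcb (1.27 and 1.22) and Th, the first enzyme of catecholamine synthesis, were higher. The growth cone gene Stmn2 was measured on both arrays and was lower (−1.44 and −1.04). Calca, which encodes the pain peptide CGRP (−1.86 and −1.76), was lower, with an injected signal not well above background. With the mean over all its probes, Calca turned to 0.24 relative to all genes. In the wild-type pair 3 were higher and 5 lower of 17, with medians of −0.70 and −0.70.

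Immediate early and stress genes gave 3 higher and 1 lower of 24, where 7.16% of all genes were higher and 6.80% lower, with medians of −0.13 and 0.08. Fosl1, a subunit of AP-1, was seen on the injected array alone (at least 2.09 and 1.89), and Chac1, which degrades glutathione (1.31 and 1.48), and the metallothionein gene Mt2A (1.09 and 1.22) were also higher. Ddit4, an inhibitor of mTOR signaling, was lower (−1.69 and −1.42). Relative to all genes the list turned to −0.19 after normexp correction. None of 59 ribosomal protein genes and none of 39 genes of oxidative phosphorylation was at least 2-fold higher or lower on both scales. The ribosomal medians were 0.10 and −0.10. Relative to all genes they lay at 0.48 and 0.08, and at −0.18 after normexp correction. The medians of oxidative phosphorylation were −0.52 and −0.29, with Atp5f1b of the ATP synthase lowest (−1.23 and −0.89).

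Set beside the wild-type pair, the injected nude nerve shared part of its genes. Of 658 higher nude genes that were measured in both pairs, 186 (28.3%) were also higher in wild-type rats and 1 was lower. Of all genes measured in both pairs, 4.15% were higher in wild-type rats. Of 643 lower nude genes, 196 (30.5%) were also lower in wild-type rats and 3 were higher, where 3.20% of all genes measured in both pairs were lower. From the other side, 186 of 390 higher wild-type genes (47.7%) and 196 of 300 lower ones (65.3%) were also at least 2-fold higher or lower, respectively, in nude rats. Of 144 higher genes above every control probe, 97 (67.4%) were higher in wild-type rats as well, and of the remaining 514 it was 89 (17.3%). This divides the genes by the size of the nude ratio itself and is a description alone.

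Over 8551 genes well above background on all 4 arrays, the median-centred ratios of the pairs correlated with r = 0.62 and rho = 0.62. This runs across genes, which are not independent replicates, on arrays of the same slide, and is a description. The genes with opposite calls were Atp2a1, Myl11 and Ckm, lower in nude and higher in wild-type nerve, and Spag11a, an epididymal peptide gene, with ratios of 2.99 and 3.03 in nude and −1.10 and −1.09 in wild-type nerve. Spag11a was named for its opposite calls after its values were seen. Chemokine and pentraxin genes with a high wild-type ratio were not all as far apart in nude nerve. Cxcl10, an interferon-induced chemokine gene, had median-centred ratios of 3.00 in wild-type and 0.07 in nude nerve. The pentraxin gene Ptx3 had 4.58 and 1.72. No difference between rat types was tested.

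**Figure D5:**
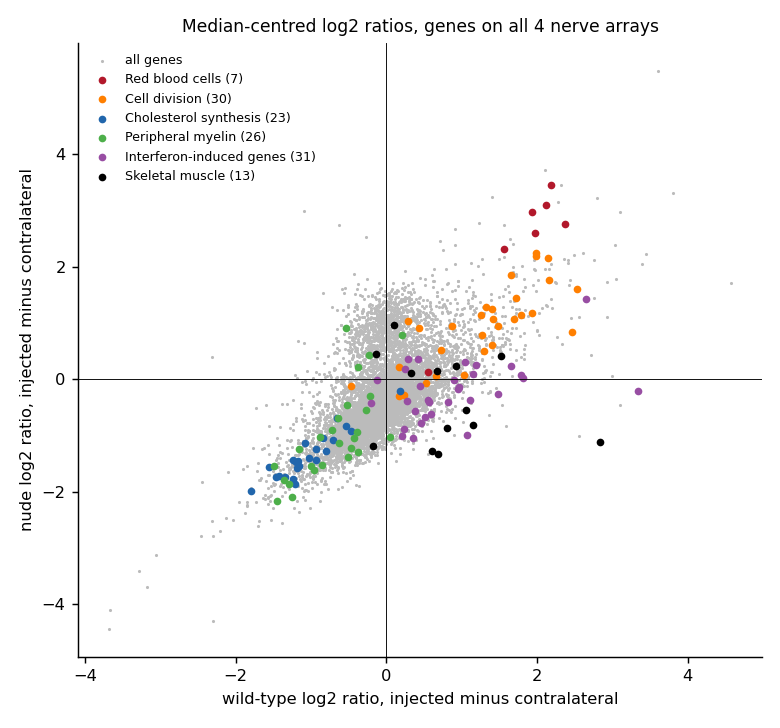
Median-centred log2 ratio, injected minus contralateral, of nude nerve against wild-type nerve for 8551 genes well above background on all 4 arrays. Points are genes, with 6 lists coloured. Red cell and most cell division genes lie high in both pairs, and cholesterol and most myelin genes low in both.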

How the data were processed

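Total RNA was labelled with Cy3 and hybridised to single-colour Agilent rat arrays, and the authors extracted spots with Feature Extraction (10.5 per the labels, 10.7.3.1 per the file headers). The deposited intensity values are background-subtracted spot signals with no step between arrays. The authors deposited log2 values of 30507 probes on 12 arrays from GeneSpring. The paper names normalization to the median, but sorted, the arrays' values lie within 0.00153 of each other, which is what quantile normalization leaves. The deposited flags, set by the authors' software, mark spots as outlying, saturated or well above background.

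Outlier spots were left out, log2 signals of repeat spots averaged and array medians subtracted. RefSeq accessions named 18006 probes (15159 genes, GRCr8), and the brightest probe stood for each of 2607 genes with more than 1. Signals not well above background were raised to the lowest signal that was so on the array, unless they already exceeded it. A gene entered if well above background on at least 1 array. Where the floor turned a ratio, none was given. Arrays give no counts, and their number limits the precision.

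Genes were named by a rule: the 10 highest and 10 lowest, the 5 largest bounds each way, and up to 5 members of each of 37 lists with the largest ratio. Further list members were named to complete a count or to say that they were not detected, after their values were seen. Some genes that the rule takes are not reported here. The members and lists were chosen with earlier results of these data known. The 14 alternative settings are given in the closing section, and 2 of them (normexp without an offset, scaling to control probes) were chosen after seeing the data. Normexp used the median spot signal, as no mean signal column was used here. All steps were tested on simulated data. Software was R 4.3.3 with limma 3.58.1, and Python 3.11.15 with matplotlib 3.10.9, numpy 2.4.6 and pandas 2.3.3.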

Additional observations from a re-analysis of the deposited data

Results flagged for a closer look

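Muscle genes had ratios of opposite sign in the rat types. Atp2a1 had a median-centred log2 ratio of −1.66 in nude and 2.41 in wild-type nerve, Myl11 of −1.30 and 4.15, and Ckm of −1.14 and 1.33. The nude values are bounds, from genes well above background on the contralateral array alone, and after normexp correction they turned to 0.058, 0.40 and 0.46 relative to all genes. Each rat type has 1 array a side, the difference was not tested, and the labelled day and strain differ too.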

How the results depend on the processing

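No paired analysis was possible because each side has 1 array, whose replicate number is 1 throughout. A slide term and leaving out a replicate could not be run for the same reason. Unless a scale is said to stand alone, counts require the deposited scale as well. Against 677 higher genes, there were 28 after normexp correction with an offset of 50, above the median spot signal of the injected array (23.5), 209 without the offset, 57 scaled to the control probes, 1308 with no filter and no floor, and 158 at 3-fold. Against 643 lower genes, there were 419 after normexp (4075 on that scale alone), 1017 with no filter (1647 alone) and 100 at 3-fold, and 1279 on the median-centred scale alone. Against 174 list members past 2-fold, there were 70 after normexp, 99 scaled to the control probes and 71 at 3-fold. Relative to the median of all genes, list medians turned sign after normexp for MHC class I (−0.29; −0.0054 without the offset), complement (−0.053), collagens (−0.17), immediate early genes (−0.19), ribosomal proteins (−0.18), skeletal muscle (0.40) and endothelium (0.32). Among named genes at least 2-fold lower, Batf3 (0.15), Ccr2 (0.16), Atp2a1 (0.058), Myl11 (0.40), Ckm (0.46), Kit (0.44), Lifr (0.39), Cdh2 (0.54) and Sort1 (0.41) did so. Negative ratios short of 2-fold on both scales also turned sign over the settings for some genes. Among these were Cmpk2 (highest 0.18), Ccr1 (0.29), Trem3 (0.54) and Rfxap (0.35). With no filter, MHC class II (−0.055), MHC class I (−0.20), collagens (−0.0045), immediate early genes (−0.013) and endothelium (0.028) turned, and with probes well above background on both arrays, endothelium (0.029). With the mean over all probes, chemokine receptors (−0.18), Pi16 (0.0081) and Calca (0.24) turned. Apart from fewer probes or a higher threshold, the cause was not tested. Over all alternatives run, list medians relative to all genes stayed between 2.17 and 3.17 for red cells, 1.10 and 1.47 for cell division, −1.14 and −0.64 for myelin, −1.40 and −0.93 for cholesterol synthesis and −1.64 and −1.21 for adipocytes. Of 69 other probes of higher genes 47 had the same direction and 32 passed 2-fold, and of 69 of lower genes 47 and 16.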
